A study of Mus musculus with 2 samples.

Results

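DNA replication and G1/S genes are the genes that prepare and copy the genome once per cell cycle. The 45 listed genes were taken by symbol from a deposited table of 16463 genes measured in unstimulated bone marrow-derived macrophages, and all 45 were found, each in 1 row. They were grouped by role into origin licensing, the replicative helicase, polymerases and primase, the sliding clamp with its loader and lagging-strand enzymes, single-stranded DNA binding, nucleotide supply and uracil removal, chromatin assembly and histone supply, and cyclin E.

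Polyadenylated RNA was profiled in 2 libraries of macrophages grown from mouse marrow in medium conditioned by L929 cells, a source of macrophage colony-stimulating factor. The TKO library came from mice labelled mir-106a~363-/-, mir-106b~25-/- and mir-17~92flox/flox with Lyz2-Cre. The WT library came from mice labelled Lyz2-Cre, so both genotypes carried the recombinase, and both are labelled C57BL/6J with no stimulation. Lyz2-Cre acts in myeloid cells, so a floxed cluster would stay intact in any other cell of the culture. Sex, age and the number of mice are not given in the labels. Each genotype had 1 library, with 10656431 rounded counts in TKO and 10877897 in WT. No test was possible and no difference below has a replicate check. All intervals are 95% intervals for counting error only.

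Proliferating macrophage cultures contain cells in S phase, and the genes described here are the machinery of that phase. Before S phase, the origin recognition complex, Cdc6 and Cdt1 load the MCM helicase on DNA, and cyclin E with its kinase and the E2F transcription factors then drive the start of synthesis. Cdc45 and the GINS complex join MCM to form the active helicase, primase and polymerases copy the strands, the clamp PCNA holds the polymerases, and ribonucleotide reductase, thymidylate synthase and thymidine kinase supply the building blocks. The clusters labelled as deleted or floxed encode microRNAs that fall by seed into a miR-17, a miR-18, a miR-19 and a miR-25/92/363 family, which are well known for acting on the cell cycle and on E2F factors.

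The counts cannot check the labelled genotypes. Mir17hg (Entrez 75957), the host transcript of mir-17~92, had 42 counts in TKO, against 8 in WT, a log2 ratio of 2.46 (1.35 to 3.76). Its exons in GENCODE M21 hold the microRNAs of the cluster and further sequence on both sides, and the table sums over them. The precursor entries Mir17 and Mir25 each had 0 counts in TKO, against 1 in WT. TKO and WT therefore name the libraries by their labels throughout.

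The mature microRNAs below show what the labelled genotype would remove, with 1 microRNA for each seed family, all from the floxed cluster, and the seed (bases 2 to 8) in capitals. Sequences are from RefSeq on GRCm38.p6 and are written 5′ to 3′. Mature microRNAs carry no poly(A) tail and were not measured.
mmu-miR-17-5p, chr14:115043684-115043706, plus strand: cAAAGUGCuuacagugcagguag
mmu-miR-18a-5p, chr14:115043867-115043889, plus strand: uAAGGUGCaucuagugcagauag
mmu-miR-19a-3p, chr14:115044048-115044070, plus strand: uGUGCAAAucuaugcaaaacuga
mmu-miR-92a-3p, chr14:115044476-115044496, plus strand: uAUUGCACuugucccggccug

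Matches to these seeds were uncommon in the 3′ untranslated regions of the replication genes. In the longest annotated 3′ untranslated region of each gene (GENCODE M21), the letters GCACTTT of the miR-17 family were found in 4 of 45 members, Mcm3, Rpa2, Rrm2 and Chaf1a, or 8.89%, against 14.9% of 10769 genes past the count minimum. GCACCTT of the miR-18 family was in Gins2, Rpa1 and Ung (6.67% of members, against 9.36% of genes). TTTGCAC of the miR-19 family was in Pola1, Rrm1 and Rrm2 (6.67%, against 13.4%). GTGCAAT of the miR-25/92/363 family was in Ccne2 alone (2.22%, against 7.61%). The members' untranslated regions were also shorter, with a median of 474 bases in the 35 compared members without any match, against 837 in all compared genes without one. Matches in both subunits of ribonucleotide reductase, in cyclin E2 and in Mcm3 are shown with 10 bases on each side (GRCm38, capitals mark the match), since the first 2 of these genes are among the most abundant members. The miR-17 and miR-19 matches of Rrm2 overlap.
Rrm2 site of the miR-17 family, chr12:24713630-24713656, plus strand: aataaaattgGCACTTTgcacacacac
Rrm2 site of the miR-19 family, chr12:24713634-24713660, plus strand: aaattggcacTTTGCACacacacacac
Rrm1 site of the miR-19 family, chr7:102469275-102469301, plus strand: taatgcagtaTTTGCACttgtatggct
Ccne2 site of the miR-25/92/363 family, chr4:11203580-11203606, plus strand: ctcttgaatgGTGCAATttgtttttga
Mcm3 site of the miR-17 family, chr1:20803156-20803182, minus strand: ccacccccagGCACTTTagtccaggaa

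A match says only that the letters are present. The median ratio was no higher among genes with a match, as the 9 compared members with one had a median log2 ratio of -0.21 and the 35 without had -0.071. The same held for all compared genes, with medians of -0.060 for 3680 genes with a match and 0.033 for 7089 without. Length differed between these groups, and its part was not tested.

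As a group the replication genes were slightly lower in TKO, by far less than 2-fold. Ratios are log2 of TKO over WT on counts scaled with trimmed-mean (TMM) factors, and 44 of the 45 genes had the 20 counts in 1 library needed to be compared. Their median log2 ratio was -0.12, against 0.0043 for all 11525 compared genes. Below 0 were 33 of the 44, or 75%, where 49.4% of all compared genes lay below 0. By the interval rule, under which the counting interval must exclude 0, 17 members (38.6%) were lower, where 22.7% of all compared genes were lower. By the same rule 2 members, Tyms and Chaf1b, were higher (4.55%), where 21.8% of all compared genes were higher. No member was lower or higher by the size rule, which also asks for at least 2-fold and which took 2.3% of all compared genes as lower and 2.43% as higher. The interval rule takes more genes where counts are higher, and the members' median was 408 counts in TKO and 424.5 in WT, against 335 in TKO and 345 in WT over all compared genes.

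The ratios were small, and somewhat narrower in spread than those of all compared genes. The quartiles of the 44 log2 ratios were -0.27 and -0.0098, against -0.21 and 0.21 over all compared genes. The standard deviation over members was 0.25, against 0.56 over all compared genes. The latter includes extreme ratios, as those genes ran from -6.59 to 10.3. Summed over the 45 genes the counts were 25356 in TKO, against 29290 in WT, a log2 ratio of -0.14 (-0.17 to -0.12). The genes made up 0.238% of all counts in TKO and 0.269% in WT. In a bulk library, fewer cells in S phase and less RNA per cell cannot be told apart. Exons of 15 members overlap another gene in GENCODE M21, in 14 cases on the opposite strand, and they include Orc1, Cdc45, Pole, Fen1, Lig1, Tk1 and Chaf1a of the 17 lower ones. Strand use in counting is not given, so reads of such pairs cannot be assigned with certainty.

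**Figure D1:**
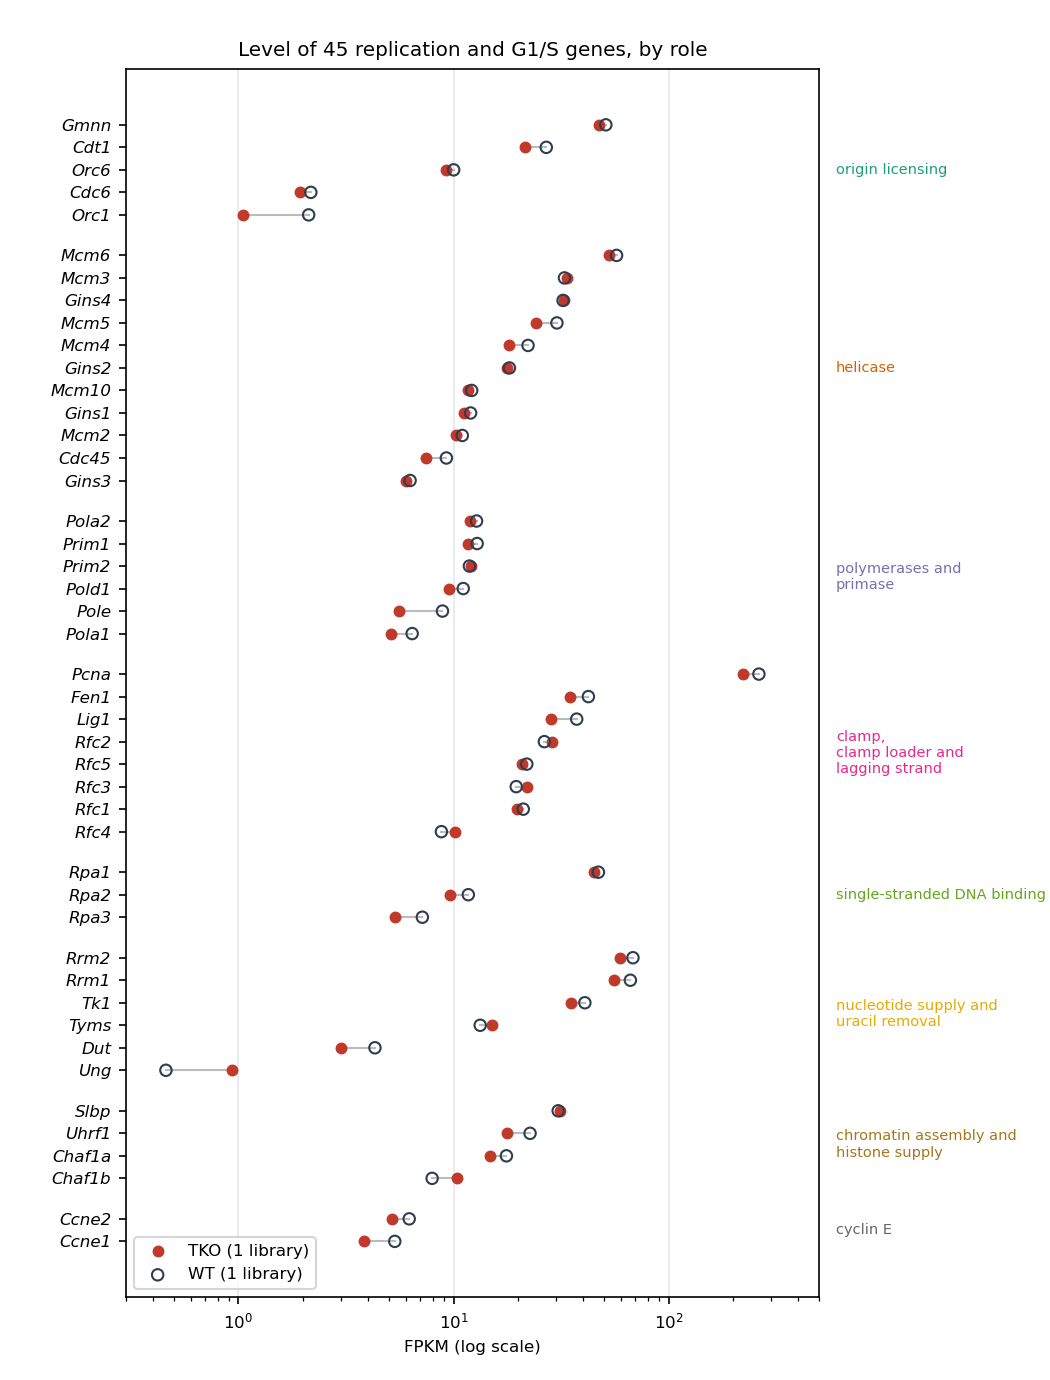
Level of each of the 45 genes in FPKM, reads scaled by gene length and library size (horizontal log axis), by role; filled red points are the TKO library and open points the WT library. Pcna stands above all other members at 221 FPKM in TKO and 263 in WT, and the members run down to Ung at 0.930 FPKM in TKO and 0.460 in WT.

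Levels per length spread widely among members of one machine. The mean of both libraries ran from 0.695 FPKM for Ung to 242 for Pcna, and 31 of the 45 were above 10 FPKM. After Pcna, the highest means were 63.7 FPKM for Rrm2, 61.2 for Rrm1, 55 for Mcm6, 49.2 for Gmnn and 46 for Rpa1. The lowest after Ung were 1.58 FPKM for Orc1, 2.05 for Cdc6 and 3.65 for Dut. Subunits that sit in one complex in equal number also differed in FPKM, as Mcm6 was at 52.8 in TKO and 57.2 in WT and Mcm2 at 10.2 in TKO and 11 in WT.

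Origin licensing genes were below 0 in all 5 cases, with a median log2 ratio of -0.13, and 2 of them were lower by the interval rule. Such counts in the role groups stand beside the 22.7% of all compared genes that were lower by this rule. Orc1 (Entrez 18392, chromosome 4, 108579423 to 108614833), the ATPase subunit of the origin recognition complex whose level varies with the cell cycle, had 34 counts and 1.05 FPKM in TKO, against 70 counts and 2.12 FPKM in WT. It was 1.97-fold lower (95% interval 1.29 to 3.06) and had the lowest log2 ratio of all members, -0.98 (-1.61 to -0.37). That is just short of the size rule, and it passed at -1.01 with scaling by library totals and at -1.01 with the FPKM ratio. An annotated transcript, Gm12743, overlaps its exons on the opposite strand. Cdt1 (Entrez 67177, chromosome 8, 122568015 to 122573554), which brings the helicase to origins, had 517 counts and 21.6 FPKM in TKO, against 659 counts and 27 FPKM in WT, and was 1.22-fold lower (95% interval 1.08 to 1.37). Gmnn (Entrez 57441, chromosome 13, 24751845 to 24761923), geminin, the inhibitor that binds Cdt1, was the most abundant of the group per length. It had 492 counts and 47.3 FPKM in TKO, against 541 counts and 51 FPKM in WT, a log2 ratio of -0.071 (-0.25 to 0.11) with an interval that includes 0. Orc6 (Entrez 56452, chromosome 8, 85299632 to 85308278), the smallest subunit of the origin recognition complex, had the highest ratio of the group. It had 158 counts and 9.26 FPKM in TKO, against 173 counts and 10.0 FPKM in WT, a log2 ratio of -0.065 (-0.39 to 0.25), and its exons overlap Vps35 on the opposite strand. The loading factor Cdc6 had a log2 ratio of -0.13 (-0.55 to 0.28).

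Helicase genes differed among themselves, with a median log2 ratio of -0.025 over 11 genes, 7 below 0 and 3 lower by the interval rule. The share that was lower is near the 22.7% of all compared genes. Within the MCM ring, Mcm5 (Entrez 17218, chromosome 8, 75109569 to 75128439) had 888 counts and 24.1 FPKM in TKO, against 1137 counts and 30.2 FPKM in WT, and was 1.22-fold lower (95% interval 1.12 to 1.34). Mcm4 (Entrez 17217, chromosome 16, 15623897 to 15637400), another ring subunit, had 695 counts and 18 FPKM in TKO, against 872 counts and 22.2 FPKM in WT, and was 1.20-fold lower (95% interval 1.08 to 1.33). Mcm3 (Entrez 17215, chromosome 1, 20802968 to 20820312), also of the ring, had 1043 counts and 33.7 FPKM in TKO, against 1033 counts and 32.8 FPKM in WT, a log2 ratio of 0.079 (-0.046 to 0.20), whose interval does not overlap those of Mcm4 and Mcm5. The most abundant ring gene per length, Mcm6 (Entrez 17219, chromosome 1, 128331590 to 128359664), had 1717 counts and 52.8 FPKM in TKO, against 1874 counts and 57.2 FPKM in WT, a log2 ratio of -0.061 (-0.16 to 0.035), and Mcm2 had -0.065 (-0.27 to 0.14). The intervals of both include 0. Mcm7, the remaining ring subunit and the host of mir-106b~25 in an intron, is not among the listed genes and had 1083 counts in TKO, against 1228 in WT, a log2 ratio of -0.12 (-0.23 to 0.0033).

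Of the factors that activate the ring, Cdc45 alone was lower by the interval rule, and its interval overlaps those of the GINS genes. Cdc45 (Entrez 12544, chromosome 16, 18780447 to 18811987) had 164 counts and 7.41 FPKM in TKO, against 214 counts and 9.26 FPKM in WT, the lowest log2 ratio of the helicase group, -0.32 (-0.62 to -0.018). Its exons overlap Ufd1 on the opposite strand. The 4 GINS genes, whose products form 1 complex beside Cdc45, all had intervals that include 0, with log2 ratios of 0.088 for Gins1, 0.0011 for Gins2, -0.025 for Gins3 and 0.053 for Gins4. Gins1 (Entrez 69270, chromosome 2, 150905400 to 150931280) had the highest ratio of the group, with 129 counts and 11.2 FPKM in TKO, against 127 counts and 12 FPKM in WT, so that counts were higher and FPKM lower in TKO. Gins2, Gins3 and Gins4 had 197, 155 and 470 counts in TKO, against 206, 165 and 474 in WT. Mcm10, a scaffold that joins helicase and polymerase alpha, was at -0.013 (-0.20 to 0.18).

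Of the polymerase and primase genes, the catalytic subunits of 2 polymerases were lower, Pola1 only before the trend of ratio with length was removed. The group's median log2 ratio was -0.14, with 5 of 6 below 0 and 2 lower by the interval rule. Pole (Entrez 18973, chromosome 5, 110286306 to 110337474), the catalytic subunit of the leading-strand polymerase epsilon, had 429 counts and 5.55 FPKM in TKO, against 700 counts and 8.88 FPKM in WT. It was 1.56-fold lower (95% interval 1.38 to 1.76), a log2 ratio of -0.64 (-0.82 to -0.47) and the lowest of all members after Orc1. It also has the longest entry, 7167 bases, and stood at -0.36 once the trend of ratio with length was removed. Pola1 (Entrez 18968, chromosome X, 93304767 to 93632155), the catalytic subunit of polymerase alpha, had 295 counts and 5.12 FPKM in TKO, against 377 counts and 6.42 FPKM in WT, and was 1.22-fold lower (95% interval 1.05 to 1.43). Its log2 ratio was -0.29, and -0.11 with the length trend removed, on an entry of 5350 bases. The interval of Pola1, moved with that value, includes 0. Its accessory subunit Pola2 (Entrez 18969, chromosome 19, 5940542 to 5964202), the most abundant of the group, had 307 counts and 11.9 FPKM in TKO, against 337 counts and 12.8 FPKM in WT, a log2 ratio of -0.069 (-0.30 to 0.16). Pold1, the catalytic subunit of the lagging-strand polymerase delta, was at -0.18 (-0.38 to 0.033), an interval that does not overlap that of Pole. With the length trend removed Pold1 stood at -0.15 and Pole at -0.36, and their intervals, moved with these values, overlap. The primase genes were near 0, at -0.10 (-0.39 to 0.19) for Prim1, the catalytic subunit, and 0.054 (-0.20 to 0.31) for Prim2 (Entrez 19076, chromosome 1, 33453810 to 33669795), which had 254 counts and 12 FPKM in TKO, against 256 counts and 11.8 FPKM in WT.

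The clamp and the lagging-strand enzymes were lower, whereas the clamp loader genes were not. Pcna (Entrez 18538, chromosome 2, 132249162 to 132253314), the sliding clamp and the most abundant of all members, had 2938 counts and 221 FPKM in TKO, against 3555 counts and 263 FPKM in WT, and was 1.16-fold lower (95% interval 1.10 to 1.21). Lig1 (Entrez 16881, chromosome 7, 13277283 to 13311433), the ligase that seals Okazaki fragments, had 946 counts and 28.3 FPKM in TKO, against 1274 counts and 37.4 FPKM in WT, and was 1.29-fold lower (95% interval 1.18 to 1.40). Fen1 (Entrez 14156, chromosome 19, 10199132 to 10204169), the nuclease that trims their flaps, had 809 counts and 34.9 FPKM in TKO, against 1003 counts and 42.4 FPKM in WT, and was 1.18-fold lower (95% interval 1.08 to 1.30). All 3 were lower by the interval rule and none of the 5 loader genes was. The loader subunits Rfc2, Rfc3 and Rfc4 lay above 0, at 0.16 (-0.036 to 0.35), 0.21 (-0.039 to 0.46) and 0.24 (-0.13 to 0.61), and Rfc1 and Rfc5 below, at -0.067 (-0.19 to 0.058) and -0.035 (-0.24 to 0.17). Rfc4 (Entrez 106344, chromosome 16, 23113943 to 23127737) had the highest ratio of the group, with 131 counts and 10.1 FPKM in TKO, against 116 counts and 8.78 FPKM in WT, and its exons overlap Eif4a2 on the opposite strand. The intervals of Rfc2 and Rfc3 do not overlap those of Pcna, Lig1 and Fen1. Rfc2, Rfc3 and Rfc4 have short entries of 1518, 1215 and 1231 bases and stood at 0.019, 0.040 and 0.072 with the length trend removed. The group's median over 8 genes was -0.051.

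The 3 subunits of replication protein A, which coats single-stranded DNA, were below 0 with intervals that include 0. Rpa1 (Entrez 68275, chromosome 11, 75298166 to 75348324), the largest subunit, had 1473 counts and 44.9 FPKM in TKO, against 1578 counts and 47.1 FPKM in WT, a log2 ratio of -0.034 (-0.14 to 0.070). Rpa2 had 183 counts and 9.67 FPKM in TKO, against 226 counts and 11.7 FPKM in WT, a log2 ratio of -0.24 (-0.53 to 0.049). Rpa3 (Entrez 68240, chromosome 6, 8255936 to 8259173), the smallest, had 36 counts and 5.37 FPKM in TKO, against 49 counts and 7.16 FPKM in WT, a log2 ratio of -0.38 (-1.04 to 0.27). At this depth a difference in Rpa3 of the size seen in Pcna was not detectable.

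Nucleotide supply genes were lower with 1 exception. Of 5 compared genes 4 were lower by the interval rule, with a median log2 ratio of -0.18 over the 5. The subunits of ribonucleotide reductase, which makes deoxyribonucleotides, were close to each other. Rrm2 (Entrez 20135, chromosome 12, 24708241 to 24714146) had 1386 counts and 59.1 FPKM in TKO, against 1632 counts and 68.2 FPKM in WT, and was 1.13-fold lower (95% interval 1.05 to 1.21). Rrm1 (Entrez 20133, chromosome 7, 102441695 to 102469771) had 2403 counts and 55.9 FPKM in TKO, against 2908 counts and 66.4 FPKM in WT, and was 1.16-fold lower (95% interval 1.10 to 1.22). Thymidine kinase, Tk1, was at -0.18 (-0.35 to -0.0044). Dut (Entrez 110074, chromosome 2, 125247190 to 125258608), which removes dUTP, had 73 counts and 2.99 FPKM in TKO, against 108 counts and 4.31 FPKM in WT, and was 1.41-fold lower (95% interval 1.04 to 1.93). Tyms (Entrez 22171, chromosome 5, 30058202 to 30073617), thymidylate synthase, went the other way with 619 counts and 15.2 FPKM in TKO, against 553 counts and 13.3 FPKM in WT, and was 1.17-fold higher (95% interval 1.04 to 1.32). Its interval does not overlap those of Rrm1, Rrm2 and Tk1. Summed with its processed pseudogene Tyms-ps, which had 6 counts in TKO and 0 in WT, its log2 ratio was 0.24 (0.075 to 0.41). Ung (Entrez 22256, chromosome 5, 114130386 to 114139323), the uracil glycosylase, had 19 counts in TKO, against 10 in WT, too few in either library to be compared.

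The subunits of chromatin assembly factor 1, which places histones on new DNA, differed in direction. Chaf1a (Entrez 27221, chromosome 17, 56040439 to 56072289), its large subunit, had 523 counts and 14.7 FPKM in TKO, against 637 counts and 17.6 FPKM in WT, and was 1.16-fold lower (95% interval 1.04 to 1.31). Chaf1b (Entrez 110749, chromosome 16, 93883901 to 93906115), its middle subunit, had 210 counts and 10.3 FPKM in TKO, against 165 counts and 7.95 FPKM in WT, and was 1.33-fold higher (95% interval 1.08 to 1.64), the highest ratio of the 44 compared genes. The counting intervals of the pair do not overlap. Uhrf1 (Entrez 18140, chromosome 17, 56303321 to 56323486), which reads hemimethylated DNA and recruits the maintenance methyltransferase, had 679 counts and 17.8 FPKM in TKO, against 882 counts and 22.7 FPKM in WT, and was 1.24-fold lower (95% interval 1.12 to 1.37). Slbp (Entrez 20492, chromosome 5, 33634952 to 33652574), the protein that binds the stem-loop of histone messages, was the most abundant of the group, with 638 counts and 31.2 FPKM in TKO, against 636 counts and 30.6 FPKM in WT, a log2 ratio of 0.070 (-0.091 to 0.23). The group's median over 4 genes was -0.074, with 2 below 0.

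Both E-type cyclins, partners of the kinase that starts S phase, lay below 0. Ccne1 (Entrez 12447, chromosome 7, 38097984 to 38107534) had 83 counts and 3.85 FPKM in TKO, against 117 counts and 5.33 FPKM in WT, and was 1.35-fold lower (95% interval 1.01 to 1.81), with an interval that only just excludes no change. Ccne2 (Entrez 12448, chromosome 4, 11191351 to 11204779) had 167 counts and 5.15 FPKM in TKO, against 206 counts and 6.22 FPKM in WT, a log2 ratio of -0.24 (-0.54 to 0.064). The intervals of the pair overlap, and the exons of Ccne2 overlap Ints8 on the opposite strand.

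**Figure D2:**
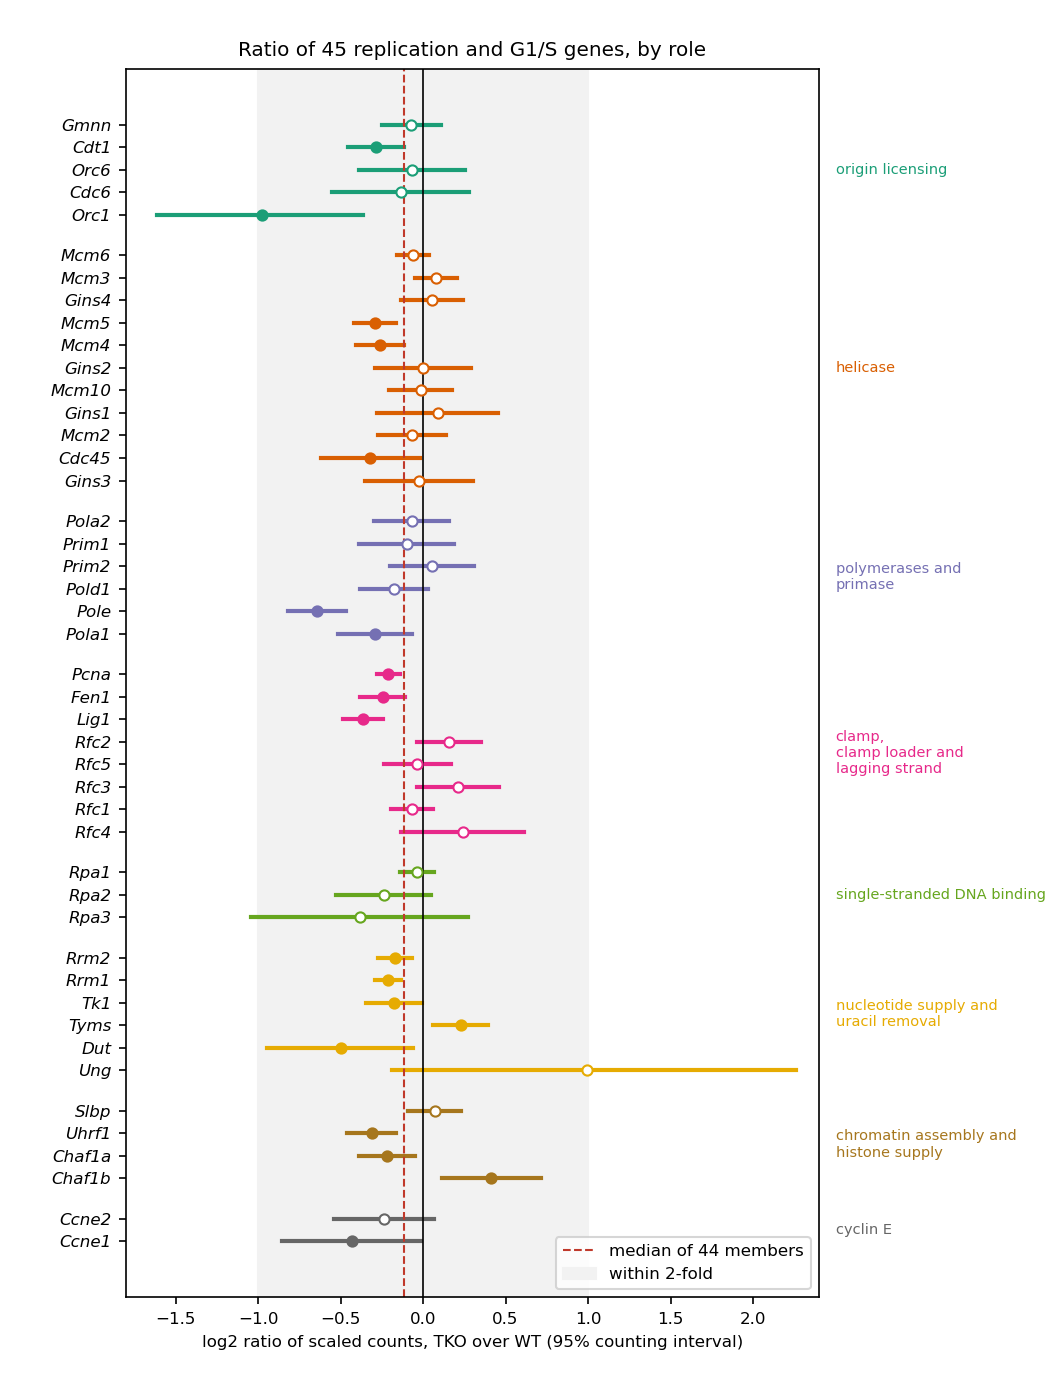
Log2 ratio of TMM-scaled counts, TKO over WT, for each of the 45 genes by role (horizontal axis), with 95% counting intervals; filled points are compared genes whose interval excludes 0, the dashed line is the median of the 44 compared genes at -0.12 and the grey band spans 2-fold in each direction. Filled points lie left of 0 for 17 genes and right of it for Tyms and Chaf1b, and all are inside the band.

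Promoters were searched for letters of the E2F consensus, and these were found in a subset of the members. The genes were listed for a step that E2F factors drive, so this feature may not be independent of their choice. RefSeq promoters (GRCm38.p6), 250 bases before to 50 after an annotated start, were matched by Entrez identifier for 36 of the 45 members, with 40 starts in all. The letters TTTCCCGC, TTTCGCGC, TTTGCCGC or TTTGGCGC were found on either strand in 12 of the 36 (33.3%), against 547 of 12794 genes of the deposited table with a promoter (4.28%), a gene counting by any of its starts. At least 2 matches, which may overlap, were in 4 members (11.1%), Mcm3, Mcm5, Mcm6 and Rfc3, against 0.203% of genes. CCAAT, on either strand, was in 22 members (61.1%), against 42.7% of genes.

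Genes that were lower were found both with and without these letters, and no difference between the groups was tested. The 12 compared members with them had a median log2 ratio of -0.23, with 10 below 0 and 6 lower by the interval rule. The 23 without had -0.10, with 19 below 0 and 9 lower, and the 9 members with no promoter listed had 0.0011. Over all compared genes the medians were -0.016 for 450 genes with the letters and 0.0094 for 8807 without. The promoters of Orc1 and Mcm5, which were lower by the interval rule, and of Mcm3 and Rfc3, which were not, are shown with the matches in capitals, written 5′ to 3′ in the direction of the gene. In Mcm5 the capitals cover a pair of overlapping matches on opposite strands, and in Mcm3 and Rfc3 the pair is separate.
Orc1 promoter, chr4:108579204-108579503, plus strand: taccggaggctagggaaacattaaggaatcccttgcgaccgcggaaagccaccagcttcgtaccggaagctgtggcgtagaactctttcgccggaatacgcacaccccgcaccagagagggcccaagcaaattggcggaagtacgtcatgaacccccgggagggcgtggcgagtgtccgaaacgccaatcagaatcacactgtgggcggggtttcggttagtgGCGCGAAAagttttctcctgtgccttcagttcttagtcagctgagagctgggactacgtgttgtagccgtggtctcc
Mcm5 promoter, chr8:75109259-75109558, plus strand: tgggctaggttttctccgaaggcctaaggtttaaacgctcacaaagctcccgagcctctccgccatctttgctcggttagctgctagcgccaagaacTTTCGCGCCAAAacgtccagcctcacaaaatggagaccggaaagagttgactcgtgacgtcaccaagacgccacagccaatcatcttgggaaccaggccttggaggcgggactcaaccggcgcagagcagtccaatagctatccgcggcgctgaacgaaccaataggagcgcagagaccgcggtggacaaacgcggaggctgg
Mcm3 promoter, chr1:20820263-20820562, minus strand: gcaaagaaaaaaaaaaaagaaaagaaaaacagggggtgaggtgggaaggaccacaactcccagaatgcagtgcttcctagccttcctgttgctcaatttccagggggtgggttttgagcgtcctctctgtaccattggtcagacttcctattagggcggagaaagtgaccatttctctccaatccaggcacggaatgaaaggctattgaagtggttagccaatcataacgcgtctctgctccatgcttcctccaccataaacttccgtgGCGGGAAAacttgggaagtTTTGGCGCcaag
Rfc3 promoter, chr5:151651159-151651458, minus strand: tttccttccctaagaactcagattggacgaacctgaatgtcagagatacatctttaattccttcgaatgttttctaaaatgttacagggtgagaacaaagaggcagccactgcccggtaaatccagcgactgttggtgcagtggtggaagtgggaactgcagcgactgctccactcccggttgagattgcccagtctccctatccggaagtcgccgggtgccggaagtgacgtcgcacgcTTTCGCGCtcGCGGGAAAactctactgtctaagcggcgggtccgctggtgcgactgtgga

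Gene length was examined because ratios fell with length over the whole table. Over all 11525 compared genes the Spearman correlation of the log2 ratio with gene length was -0.45, and over the 44 members it was -0.33. Both are descriptions across genes of the same 2 libraries, and genes are not independent replicates. The members are of moderate length, with a median of 2268 bases (655 for Rpa3 to 7167 for Pole), against 2859 over all compared genes. Genes were split into 3 length classes of equal size at 2155 and 3719 bases. In the short class, the 19 members had a median log2 ratio of -0.035, against 0.16 for all genes of that class. In the middle class, the 19 members had -0.22, against 0.018, and 18 of them lay below 0, where 47.1% of all genes there did. In the long class, the 6 members had -0.17, against -0.18.

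With the trend removed by lowess, the members' median was -0.17, with 36 of 44 below 0, where 49.9% of all compared genes were. By the interval rule 18 were lower and 2 higher, where 17.6% of all compared genes were lower and 19.1% higher in that setting. In 4 cases a gene moved out of its counting interval. Gmnn, a short entry, went to -0.27 and Pcna to -0.38, whereas Pole went to -0.36 and Rfc1 to 0.064.

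**Figure D3:**
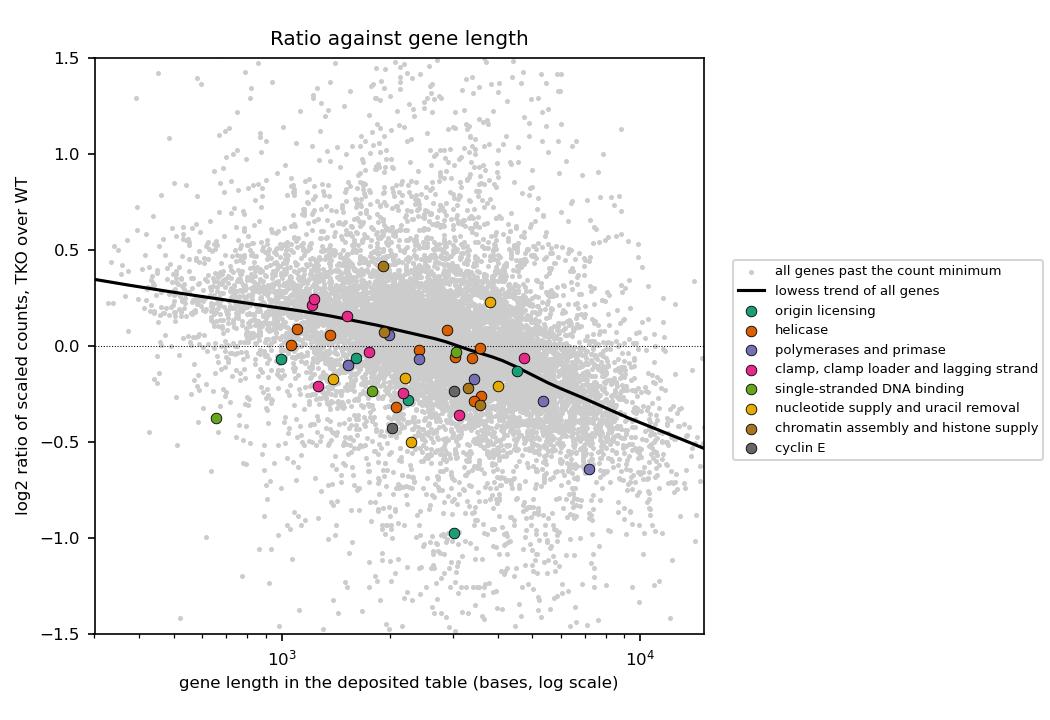
Log2 ratio of scaled counts, TKO over WT, against gene length in bases (log scale); grey points are all compared genes, the line is their lowess trend and coloured points are the 44 members by role. Most members lie below the line, 36 of 44; 255 of the 11525 genes lie outside the axes.

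Other genes of the same pathway were compared from lists of related function. Beside their counts stand the 22.7% of all compared genes that were lower and the 21.8% that were higher by the interval rule. Of 35 further fork and origin genes, 7 were lower and 3 higher by the interval rule. Their median log2 ratio was -0.066, between the members' median of -0.12 and the 0.0043 of all compared genes. Topoisomerase I, Top1, had the most counts, 1171 counts in TKO, against 1362 in WT, a log2 ratio of -0.15 (-0.27 to -0.039). The lowest was Atad5, which helps to unload the clamp, with 146 counts in TKO, against 282 in WT, a log2 ratio of -0.88 (-1.18 to -0.59) that was -0.59 with the length trend removed. Rnaseh2a, the catalytic subunit of ribonuclease H2, was the highest, with 327 counts in TKO, against 271 in WT, and a log2 ratio of 0.34 (0.10 to 0.57). Of 10 further chromatin replication genes 7 were lower and none higher by the interval rule, with a median of -0.18. Among them Dnmt1, the maintenance DNA methyltransferase, had 2580 counts in TKO, against 3425 in WT, a log2 ratio of -0.34 (-0.42 to -0.27), the remodeller gene Hells was the lowest at -0.57 (-0.92 to -0.22), and the histone chaperone gene Asf1a the highest at 0.052 (-0.35 to 0.45).

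Further nucleotide supply genes went both ways. Of 19 genes, 2 were lower and 3 higher by the interval rule, with a median log2 ratio of -0.013. The higher ones were Dck, Rrm2b and Samhd1. Samhd1, which breaks down deoxyribonucleotides and is induced by interferon, had the most counts, 5285 counts in TKO, against 3908 in WT, a log2 ratio of 0.50 (0.44 to 0.56). Dck, the salvage kinase for deoxycytidine, had 1706 counts in TKO, against 1127 in WT, a log2 ratio of 0.66 (0.55 to 0.77). Rrm2b, the reductase subunit used outside S phase, had 150 counts in TKO, against 120 in WT, a log2 ratio of 0.39 (0.032 to 0.75). Cad, which starts pyrimidine synthesis, was the lowest at -0.40 (-0.64 to -0.15). Dctd, which makes dUMP, had the highest ratio on few counts, 22 counts in TKO, against 11 in WT, with an interval of -0.040 to 2.26.

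Regulators of the G1/S step had 7 of 28 genes lower by the interval rule, a share near the 22.7% of all compared genes. By that rule 2 were higher, a smaller share than the 21.8% of all compared genes. The median log2 ratio of the list was -0.11. Cyclin A2, Ccna2, had the most counts and a log2 ratio of -0.029 (-0.11 to 0.051). The lowest was E2f7, a repressor of the E2F family, with 238 counts in TKO, against 334 in WT, a log2 ratio of -0.42 (-0.67 to -0.18). The highest was Cdkn1a, which encodes an inhibitor of cyclin-dependent kinases, with 2355 counts in TKO, against 1754 in WT, a log2 ratio of 0.49 (0.40 to 0.58). In the G2/M list 12 of 25 genes were lower and 1 higher, with a median of -0.15. Mki67, the proliferation marker, had the most counts and the lowest ratio there. It had 10029 counts in TKO, against 14713 in WT, a log2 ratio of -0.49 (-0.52 to -0.45). Its entry is long, 10098 bases, and its log2 ratio was -0.082 with the length trend removed. In that setting the median of the G2/M list was -0.12. The highest ratio of the G2/M list was that of the spindle checkpoint kinase gene Ttk. It had 431 counts in TKO, against 346 in WT, a log2 ratio of 0.38 (0.18 to 0.59). A difference between these medians and that of the replication genes was not tested.

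The macrophage label and other cell types were examined through marker lists. All 10 macrophage markers were present, with summed counts of 129903 in TKO and 130658 in WT and a median log2 ratio of 0.033. They went both ways, with 5 lower and 4 higher by the interval rule. The range ran from Adgre1 at -0.43 (-0.47 to -0.39) to Fcgr1 at 0.68 (0.60 to 0.77). Of all compared genes, 22.7% were lower and 21.8% higher. Markers of fibroblasts and stroma, cells that can also divide in such cultures, were lower in TKO too, by far more than the replication genes. By the interval rule 10 of 11 compared were lower, and the 12 listed had summed counts of 1940 in TKO, against 6356 in WT. The log2 ratio of those sums was -1.65 (-1.72 to -1.57), against -0.14 for the sums of the 45 replication genes. None of the 12 was at 0, and Lum had 2 counts in each library. In the list of myeloid progenitors, which divide quickly, 2 of 8 markers reached the count minimum. The summed counts of the list were 163 in TKO, against 97 in WT. Most of this sum was Cd34, with 94 counts in TKO and 69 in WT. Elane had 3 counts in TKO and 0 in WT. Kit alone went the other way, with 5 counts in TKO, against 10 in WT. Dendritic cell markers summed to 1323 counts in TKO, against 547 in WT, with 4 of 6 compared. All 4 were higher by the interval rule, where 21.8% of all compared genes were higher. Most of the sum was Itgax, with 843 counts in TKO and 342 in WT, and Cd24a, with 414 in TKO and 177 in WT. Too few counts to be compared were found for Ccr7, 14 in TKO and 5 in WT, and for Zbtb46. Zbtb46 was lower in TKO, with 3 counts, against 5 in WT. Monocyte markers summed to 1786 counts in TKO and 1845 in WT, neutrophil markers to 1149 in TKO and 1117 in WT, and megakaryocyte markers to 1618 in TKO and 1233 in WT. The megakaryocyte markers disagreed in direction. Vwf had 1395 counts in TKO, against 974 in WT, and Ppbp 18, against 11. Pf4 went the other way with 200 counts in TKO, against 240 in WT, as did Itga2b with 5, against 8. B cell markers summed to 30 counts in TKO and 50 in WT, and of the T and NK list Il7r alone was in the table, with 2145 counts in TKO and 2102 in WT. Erythroid and mast cell markers had 2 and 1 counts in TKO, against 4 and 5 in WT. The part of these cells in the ratios of the replication genes was not tested.

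**Figure D4:**
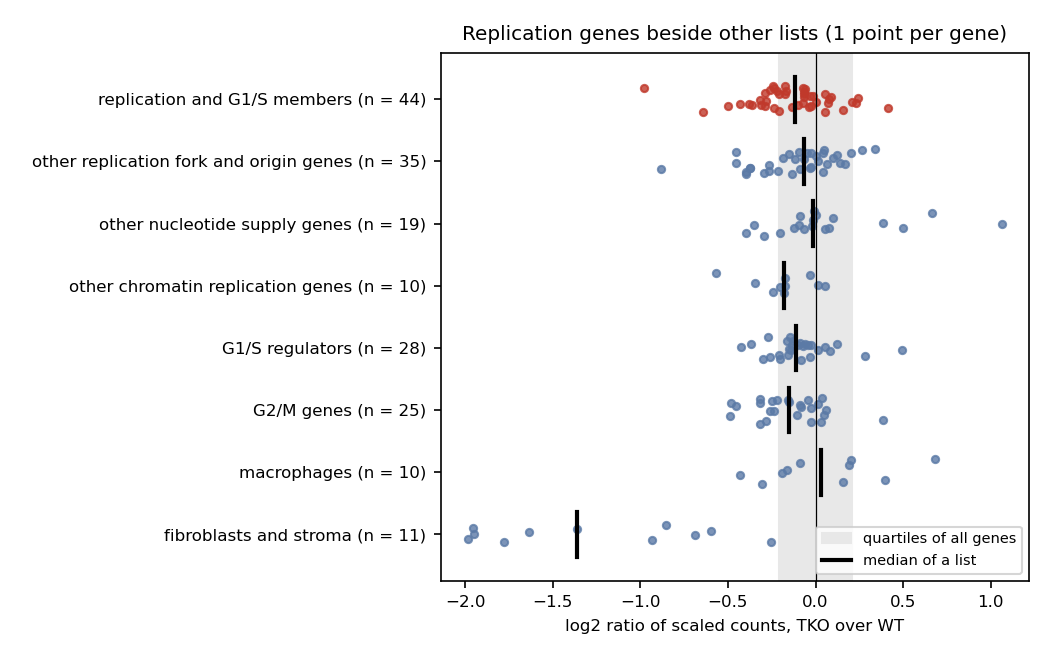
Log2 ratio of scaled counts, TKO over WT (horizontal axis), with 1 point per compared gene for the 44 members and 7 other lists; black bars are medians and the grey band spans the quartiles of all compared genes. The members' median of -0.12 lies inside that band, as do those of the other lists but the fibroblast and stroma list at -1.36.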

How the data were processed

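RNA abundance was taken from 1 deposited table with a library for each genotype, TKO and WT. It holds expected counts (estimated reads per gene) and FPKM made by the authors. Its log2 ratios, p-values and an adjusted p, handled as a score because some values exceed 1, were deposited by the authors and not used. Gene lengths are also as deposited. The submitters' processing notes name HISAT2 2.0.4, Bowtie2 2.2.5, RSEM 1.2.12 and mm10, without roles. Nothing used here states the annotation, the filters or the use of strand.

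Estimates were rounded to integers, and edgeR 4.0.16 (R 4.3.3) gave TMM factors of 0.988 for TKO and 1.01 for WT. The log2 ratio of TKO over WT was given an exact conditional binomial (Clopper-Pearson) 95% interval in Python 3.11.15 with scipy 1.17.1. It covers counting error only, PCR copies count as separate reads, and spread between mice is not measured. A gene was compared at 20 or more counts in 1 library. The interval rule asks that the interval exclude 0, and the size rule asks also for an absolute log2 ratio of at least 1. The length trend was a lowess fit (statsmodels 0.14.6, span 0.3) on log2 length.

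All 45 members are accounted for. In each role group, full values are given for the most abundant by FPKM and for the lowest and highest ratio, and further ones were added after their values were seen. Of each other list of pathway genes, those with the most counts and the lowest and highest ratio are named, and Mcm7, Dck and Rrm2b were named after their values were seen. Members and lists were chosen with earlier results of these data known. Coordinates and untranslated regions are from GENCODE M21 (GRCm38, the assembly of mm10), and promoters and microRNAs from RefSeq. The script was tested on simulated data. DESeq2 1.42.0 gave alternative size factors.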

Additional observations from a re-analysis of the deposited data

How the results depend on the processing

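The members' median stayed below 0 under all 8 alternatives, between -0.085 with at least 100 counts in 1 library and -0.17 with the length trend removed, and 31 to 36 members lay below 0. The median of all compared genes moved by less than 0.1 under each scaling. With library totals 1 member, Orc1, was lower by the size rule, and 1 was with the FPKM ratio without a pseudocount. The helicase median was -0.093 with FPKM plus 1, -0.10 with the FPKM ratio and -0.095 with the length trend removed. The single-stranded DNA binding median was -0.14 at 100 counts and -0.35 with the length trend removed. That removal also gave -0.27 for origin licensing and -0.24 for nucleotide supply. Lower by the interval rule were 11 of 44 members with a 99% interval, where 17.7% of all compared genes were lower. Without the 15 whose exons overlap another gene, 10 of 29 were lower, where 22.7% of all compared genes, overlapping or not, were lower. Leaving these out and summing Tyms with Tyms-ps were chosen after seeing the data. The cause of these shifts was not tested, beyond the wider interval and the smaller sets. No paired analysis was possible because each genotype had 1 library. With 1 library each, no replicate could be left out, and members with few counts, such as Orc1 and Rpa3, have wide intervals.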
